A study of Homo sapiens with 4 samples.

Results

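Serine synthesis and folate one-carbon metabolism were followed through 10 enzyme genes: PHGDH, PSAT1, PSPH, SHMT1, SHMT2, MTHFD1, MTHFD1L, MTHFD2, ALDH1L2 and MAT2A. The genes were chosen by name for their place in the pathway. Earlier results of these data were known when these genes and the lists of further genes below were chosen. By Ensembl identifier, 10 of 10 were found among the 64252 genes of the deposited count matrix. All 10 were among the 17971 genes that passed the filter on low counts. RNA-seq was performed on human cells labelled NB4, an established acute promyelocytic leukemia line that carries the PML-RARA fusion, after 24 h with 8 μM dBET1 (2 libraries) or with its solvent DMSO (2 libraries). dBET1 is a PROTAC, a molecule with a ligand for the BET bromodomains at one end and a ligand for cereblon at the other, which brings BET proteins to an E3 ubiquitin ligase for degradation. Both groups came from the same line, no other agent or genetic change separates them in the labels, and the labels do not say whether the libraries of a group came from separate cultures. The study's methods speak of independent repeats of its experiments in general, not of these libraries. Every adjusted p below therefore weighs a change against the spread between the libraries, which may be technical.

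The libraries held 28019956 to 34685645 counts, and the TMM factors that scale them ran from 0.918 to 1.08. The cell label was checked against lineage markers. MPO, ELANE, AZU1, PRTN3 and CTSG, which encode the granule proteins of promyelocytes, had 17 and 15 counts between them in DMSO, against 55 and 25 after dBET1, and ELANE and CTSG were at 0 in all 4. With CEBPE and CFD added, this list of 7 genes summed to 14.2 to 17.7 CPM, counts scaled by library total and TMM factor, in DMSO and 5.77 to 6.76 CPM in dBET1, and 1 of the 7, CFD, had at least 100 counts in every library. By contrast, 8 of 8 erythroid markers (GATA1, KLF1, HBG1, HBG2, HBZ, HBE1, EPOR and ALAS2) had at least 100 counts in every library, and they summed to 4857 and 5881 CPM in DMSO and to 3181 and 3146 CPM in dBET1. The markers therefore go against the label NB4, and the cells are called here the cells labelled NB4. CD14, LYZ and CSF1R of monocytes summed to 18.04 and 19.03 CPM in DMSO and 12.2 and 13.3 CPM in dBET1, and CD3E of T cells had 0 to 2 counts. Summed over each list, the erythroid, granule and monocyte markers were all lower after dBET1, the direction of the enzymes described below. A sum does not show that each of its genes fell. Whether the cell types of these lists have a part in the changes of the enzymes was not tested. In bulk RNA, fewer cells of a type and less RNA per cell cannot be told apart.

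Cells make serine from the glycolytic intermediate 3-phosphoglycerate in successive steps by PHGDH, PSAT1 and PSPH. The SHMT enzymes move a carbon from serine to tetrahydrofolate, which leaves glycine. The folate-bound carbon is then oxidised or reduced by the MTHFD enzymes and ALDH1L2, in parallel routes in the cytosol and the mitochondrion, and is spent on purines, thymidylate and methionine. MAT2A joins methionine to ATP to form S-adenosylmethionine, the methyl donor for DNA, RNA and histone methylation. Proliferating leukemia cells depend on this supply, and antifolates such as methotrexate act on it.

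After dBET1, transcripts of 8 of the 10 enzymes fell, and none rose, at an adjusted p under 0.05 in edgeR's quasi-likelihood test. The falls came in clearly different sizes. MTHFD1, MTHFD1L and PSAT1 dropped to 30.1%, 32.0% and 36.6% of their DMSO level, whereas PHGDH, MAT2A, SHMT2, MTHFD2 and SHMT1 kept 62.8% to 76.6%. PSPH and ALDH1L2 did not pass the test. Among all 17971 genes tested, 27.6% were lower and 28% were higher by the same rule, and 8.54% were lower with a log2 fold change below -1, the size that 3 of the enzymes passed. Since most of these enzymes are abundant, they were also read against the 6418 genes with at least 30 CPM. This limit was chosen after the values were seen and was reached by 8 of the 10. The enzymes below it, PSPH and ALDH1L2, are also those that did not pass the test. In that class 50.9% of genes were lower and 11.7% were lower past the fold limit. The median log2 fold change was -0.52 over the 10 enzymes, 0.05 over all genes tested and -0.27 over the abundant class. On the TMM scale, both dBET1 libraries lay below both DMSO libraries in 10 of 10 enzymes, a pattern seen in 37.4% of all genes tested. Its share was not taken for the abundant class, where lower genes were more common. The pattern depends on the scale, since with library totals alone the log2 fold change of PSPH was 0.05.

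**Figure D1:**
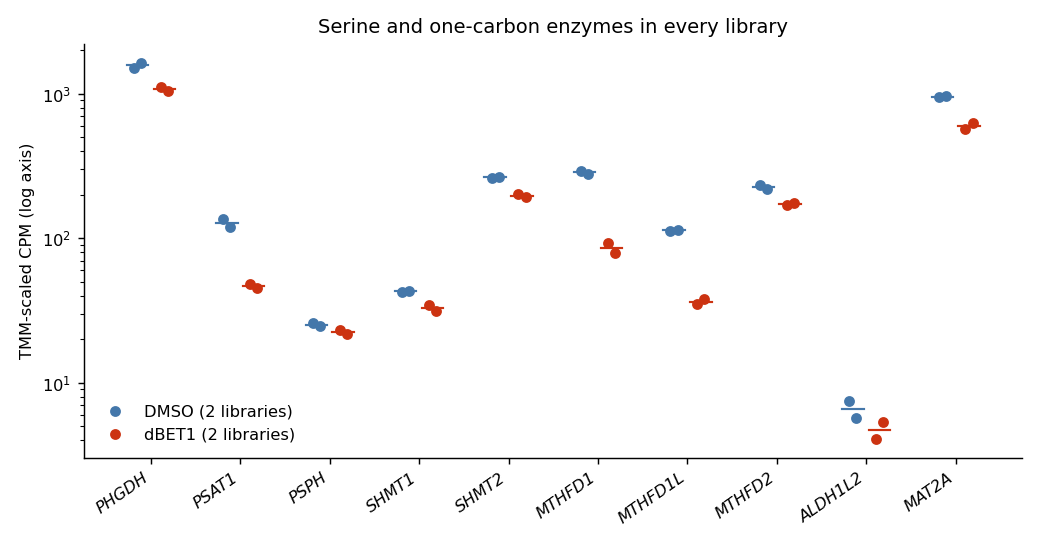
TMM-scaled CPM (log axis) of the 10 enzymes in each library, with DMSO in blue, dBET1 in red and the group mean as a bar. The red points lie below the blue points in every gene, with wide gaps for MTHFD1, MTHFD1L and PSAT1 and narrow ones for PSPH and ALDH1L2.

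PHGDH, PSAT1 and PSPH are the serine synthesis enzymes. PHGDH (ENSG00000092621, chr1:119648411-119744218 of hg38, plus strand) encodes the dehydrogenase that commits 3-phosphoglycerate to serine. It had 1501 and 1639 CPM in the DMSO libraries and 1114 and 1041 CPM in the dBET1 libraries. The groups were 1570 ± 97.4 and 1077 ± 51.6 CPM (SD, n = 2) and did not overlap. The log2 fold change was -0.54 (SE 0.076, 95% interval -0.72 to -0.37, adjusted p = 0.000667). Between 31776 and 48983 counts per library lay behind these values, so counting error was small beside the spread between replicates.

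PSAT1 (ENSG00000135069, chr9:78297125-78330093, plus strand) encodes the aminotransferase of the following step, which takes its nitrogen from glutamate. The DMSO libraries held 135 and 120 CPM, and the dBET1 libraries 48.0 and 45.2 CPM. Both treated libraries were far below both controls, with means of 127 ± 10.9 and 46.6 ± 1.96 CPM (SD, n = 2). The fall was 1.45 on the log2 scale (log2 fold change -1.45, SE 0.094, 95% interval -1.67 to -1.23, adjusted p = 2.12e-05). The 250 bases before the PSAT1 start are shown because they carry 3 copies of CCAAT, the letters of the box bound by NF-Y, marked in capitals. They come from RefSeq on GRCh38.p14 (chr9:78296875-78297124, plus strand).
PSAT1: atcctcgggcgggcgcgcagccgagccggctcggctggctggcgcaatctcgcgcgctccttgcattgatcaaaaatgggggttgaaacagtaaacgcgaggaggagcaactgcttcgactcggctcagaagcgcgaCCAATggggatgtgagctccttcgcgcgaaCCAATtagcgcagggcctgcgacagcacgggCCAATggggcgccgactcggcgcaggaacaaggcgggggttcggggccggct
Counting both strands, 3 or more CCAAT occurred in 3.26% of the 35116 RefSeq promoter windows, each of which runs from 250 bases before a start to 50 bases after it. At least 1 CCAAT was present in 34.6% of all windows and in 7 of the 7 enzymes with a window, which are all but PSPH, SHMT2 and ALDH1L2. A match of letters is a description and does not show that a factor is bound.

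PSPH (ENSG00000146733, chr7:56011051-56051604, minus strand) encodes the phosphatase that releases free serine. It showed 25.7 and 24.6 CPM in DMSO and 23.3 and 21.8 CPM in dBET1. The dBET1 libraries were lower by a narrow margin, and the change did not pass the test (log2 fold change -0.16, 95% interval -0.42 to 0.10, adjusted p = 0.258). The interval excludes a fall of the size seen in PSAT1, the step before it. With library totals alone as the scale, the PSPH value turned to 0.05. The copy PSPHP1 held at most 4.91% of the PSPH counts in any library, and reads may be split between the pair.

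SHMT1 and SHMT2 encode the cytosolic and the mitochondrial serine hydroxymethyltransferase. SHMT2 (ENSG00000182199, chr12:57229573-57234935, plus strand) had 262 and 267 CPM in DMSO and 202 and 192 CPM in dBET1. SHMT1 (ENSG00000176974, chr17:18327860-18363563, minus strand) had 42.8 and 42.9 CPM in DMSO and 34.4 and 31.2 CPM in dBET1. In both genes the treated libraries were lower without overlap. SHMT2 fell to 74.5% of DMSO (log2 fold change -0.43, SE 0.071, 95% interval -0.59 to -0.26, adjusted p = 0.00158). SHMT1 fell to 76.6% (log2 fold change -0.39, SE 0.099, 95% interval -0.61 to -0.16, adjusted p = 0.0118). The SHMT1 call was lost without dBET1 replicate 2, where the log2 fold change was -0.33 (adjusted p = 0.138). SHMT1 is also overlapped on the opposite strand by SMCR8, whose counts reached 112% of those of SHMT1, so some SHMT1 counts may belong to its neighbour.

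The largest falls among the 10 enzymes were in MTHFD1 and MTHFD1L. MTHFD1 encodes the cytosolic enzyme that interconverts formate, methenyl- and methylene-tetrahydrofolate through 3 activities, and MTHFD1L encodes the mitochondrial synthetase that releases formate for export. MTHFD1 (ENSG00000100714, chr14:64388031-64463457, plus strand) had 293.5 and 279 CPM in the DMSO libraries and 93.1 and 79.2 CPM in the dBET1 libraries. MTHFD1L (ENSG00000120254, chr6:150865679-151101887, plus strand) had 113 and 115 CPM in DMSO and 34.9 and 37.9 CPM in dBET1. Both treated libraries lay far below both controls in each gene, and the means went from 286 ± 10.5 to 86.1 ± 9.82 CPM for MTHFD1 and from 114 ± 1.37 to 36.4 ± 2.16 CPM for MTHFD1L (SD, n = 2). The log2 fold change was -1.73 for MTHFD1 (SE 0.095, 95% interval -1.95 to -1.51, adjusted p = 1.33e-05). For MTHFD1L it was -1.64 (SE 0.087, 95% interval -1.85 to -1.44, adjusted p = 1.22e-05). ZBTB25, on the opposite strand, overlaps MTHFD1 with counts of at most 13.6% of it.

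The starts of both genes are shown because they held CACGTG, the E-box letters read by MYC-MAX dimers, and in MTHFD1L also TGATGNAA, the core of the amino acid response element read by ATF4. The capitals mark these letters in stretches of 30 bases from RefSeq on GRCh38.p14, plus strand: chr14:64388324-64388353 for MTHFD1, then chr6:150866318-150866347 and chr6:150866343-150866372 for MTHFD1L.
MTHFD1 E-box: ggccagtccctaagCACGTGggttgggttg
MTHFD1L E-box: cgcacgcccggctcCACGTGcgcagccggc
MTHFD1L response element core: ccggccgccggctcTGATGCAAtcgcgccg
The MTHFD1 E-box covered bases 15 to 10 before the start, and that of MTHFD1L spanned the start of its window, a RefSeq start 631 bases from that of the canonical transcript. On both strands, CACGTG was found in 2 of the 7 enzymes with a window and in 7.26% of the 35116 windows, and TGATGNAA in 1 of 7 and in 3.62%. Among the 4 windows that RefSeq gives for MTHFD1L, 3 held each of these motifs. The genes with an E-box in the window are also those with the largest falls, but that is a comparison of 2 genes, made after the values were seen. PSAT1 held no E-box in its window. The 95% interval of its log2 fold change (-1.67 to -1.23) still overlaps that of MTHFD1L (-1.85 to -1.44). MTHFD1L had 4 windows, and each other enzyme with a window had 1. Whether the E-box has a part in these falls was not tested.

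MTHFD2 and ALDH1L2 act in the mitochondrion, MTHFD2 as dehydrogenase and cyclohydrolase and ALDH1L2 as the dehydrogenase of 10-formyltetrahydrofolate. MTHFD2 (ENSG00000065911, chr2:74186172-74217565, plus strand) had 234 and 220 CPM in DMSO and 170.5 and 175 CPM in dBET1. All treated values lay below the controls, and MTHFD2 fell to 76.0% of DMSO (log2 fold change -0.40, SE 0.073, 95% interval -0.57 to -0.23, adjusted p = 0.00260). Without dBET1 replicate 1 the log2 fold change was -0.38 and its adjusted p of 0.0503 lay just above the limit of 0.05. ALDH1L2 (ENSG00000136010, chr12:105019784-105107643, minus strand) was the lowest of the 10 enzymes, with 7.48 and 5.73 CPM in DMSO and 4.10 and 5.31 CPM in dBET1, from 123 to 244 counts per library. The groups came close to each other, and the change was not called (log2 fold change -0.49, 95% interval -1.04 to 0.06, adjusted p = 0.113). Leaving out DMSO replicate 2 made it -0.70 with an adjusted p of 0.0320. WASHC4 and NOPCHAP1 overlap ALDH1L2 on the opposite strand and had counts of up to 1205% and 412% of it, so the ALDH1L2 value in particular may hold reads of its neighbours.

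MAT2A (ENSG00000168906, chr2:85539168-85545281, plus strand), the S-adenosylmethionine synthetase of cells outside the liver, makes the methyl donor of the cell. It had 948.5 and 958 CPM in the DMSO libraries and 572 and 625 CPM in the dBET1 libraries. The treated libraries lay far below the controls relative to the spread, at 598 ± 37.5 CPM against 953 ± 6.64 CPM (SD, n = 2). The log2 fold change of -0.67 (SE 0.073, 95% interval -0.84 to -0.50, adjusted p = 0.000190) exceeded those of PHGDH, the SHMT genes and MTHFD2, although its interval overlaps theirs. GGCX, on the opposite strand, had counts of at most 10.4% of those of MAT2A.

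**Figure D2:**
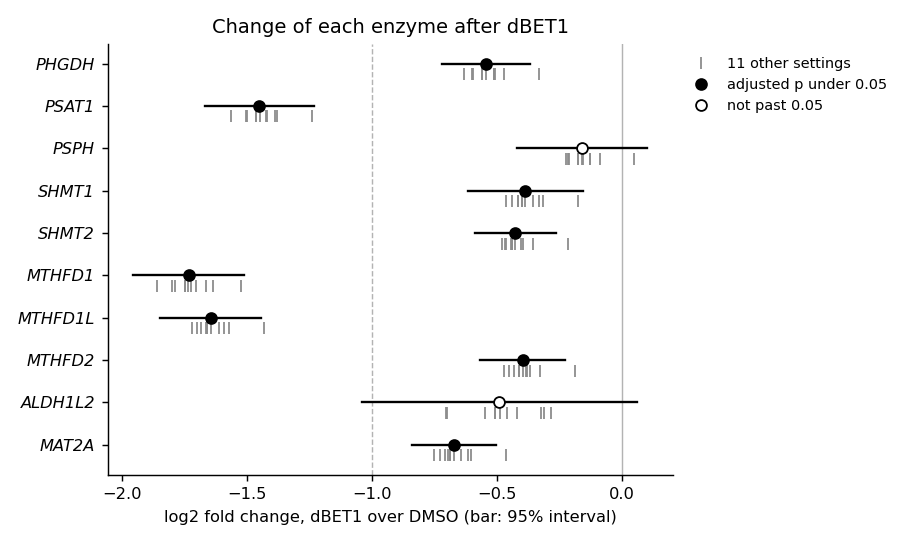
Log2 fold change of each enzyme, dBET1 over DMSO, with its 95% interval as a bar, filled points for an adjusted p under 0.05, and grey ticks for the values under the 11 other settings. MTHFD1, MTHFD1L and PSAT1 lie beyond the dashed line at -1 under every setting, and PSPH is the one gene with a tick above 0.

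Per kilobase of canonical transcript, which allows genes to be compared, the DMSO levels spanned from 841 CPM per kilobase for PHGDH to 0.889 for ALDH1L2. Between these ends stood MAT2A (338), SHMT2 (123), MTHFD1 (90.7), PSAT1 (57.7), MTHFD2 (51.6), MTHFD1L (32.9), SHMT1 (17.0) and PSPH (12.8), and the 2 libraries of each gene did not overlap those of its neighbours in the order. On this length the order changed in the middle after dBET1. MTHFD2 (39.2) now stood above MTHFD1 (27.3) and PSAT1 (21.1), and MTHFD1L (10.5) came after SHMT1 (13.0) and PSPH (11.4). PHGDH (577), MAT2A (212), SHMT2 (91.3) and ALDH1L2 (0.633) held their places. The order depends on the length used, and most of these changes are absent on the union of all annotated exons. On that length MTHFD2 stood above MTHFD1 already in DMSO (19.9 against 16.5 CPM per kilobase), PSAT1 stayed above MTHFD2 after dBET1 (21.1 against 15.1) and MTHFD1L stayed above SHMT1 (7.44 against 4.67), while MTHFD1L again came after PSPH (8.17). On it, too, MAT2A stood above PHGDH in DMSO (212.5 against 171 CPM per kilobase), PSAT1 overlapped SHMT2 in DMSO, and MTHFD1 overlapped SHMT1 after dBET1.

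**Figure D3:**
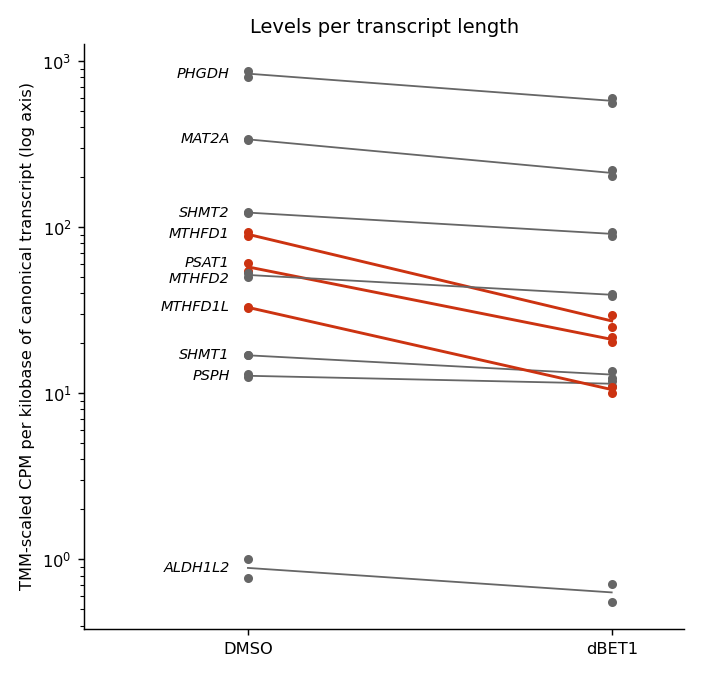
TMM-scaled CPM per kilobase of canonical transcript (log axis) of each enzyme in DMSO and dBET1, with points for libraries and lines joining group means. The lines of MTHFD1, MTHFD1L and PSAT1 are steeper than the rest and cross those of MTHFD2, or of SHMT1 and PSPH, on the way down, an order that holds for this length and in part changes on exon unions.

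Related enzymes of the cytosol and mitochondrion were compared as log2 ratios of counts within each library, which do not depend on the scaling between libraries. With 2 libraries against 2, the smallest p of the exact two-sided permutation test is 0.33, so no ratio could reach 0.05. SHMT2 to SHMT1 was 2.62 and 2.64 in DMSO and 2.55 and 2.62 in dBET1, a difference of -0.04 with overlapping groups (exact p = 0.667). MTHFD1L to MTHFD1 was -1.38 and -1.28 in DMSO and -1.42 and -1.06 in dBET1, a difference of 0.09 with overlapping groups (exact p = 1) that turned to -0.09 without dBET1 replicate 2. MTHFD2 was also set against MTHFD2L, its mitochondrial relative. This ratio was 3.06 and 3.25 in DMSO and 3.58 and 3.67 in dBET1, higher by 0.47 after dBET1 without overlap (exact p = 0.33), as MTHFD2L fell further than MTHFD2 (log2 fold change -0.87, SE 0.14, adjusted p = 0.00133).

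**Figure D4:**
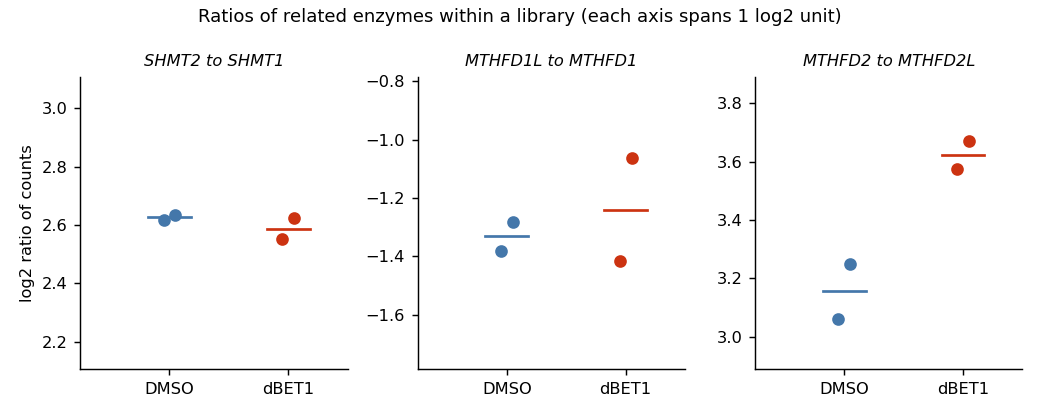
Log2 ratio of counts within each library for SHMT2 to SHMT1, MTHFD1L to MTHFD1 and MTHFD2 to MTHFD2L, with each axis spanning 1 log2 unit, points for libraries and bars for group means. The groups overlap for the SHMT and the MTHFD1 pair, and the dBET1 libraries are higher for MTHFD2 to MTHFD2L.

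The genes around these enzymes moved in both directions. Of 50 further genes in 5 lists, 40 were tested, 19 fell and 11 rose past the same threshold, with a median log2 fold change of -0.22. Without either dBET1 replicate, 7 genes rose. Over all genes tested the shares were 27.6% lower and 28% higher, so the number that rose is near the background and is no result about the lists. Among genes with at least 30 CPM, a class that holds some of the list genes, 50.9% were lower. A further 10 genes had too few counts to be tested: FOLR2, FOLR3, GLDC, SARDH, MAT1A, BHMT, BHMT2, MTAP, SDS and SPTLC3.

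Among 12 folate enzymes, 6 were lower, 3 were higher and 3 were not called, against 27.6% lower and 28% higher of all genes tested. The genes that spend folate carbon on purines and thymidylate fell. GART (306 ± 24.9 to 155 ± 9.70 CPM, SD, n = 2) and ATIC (170.5 ± 0.912 to 107 ± 1.96 CPM) of purine synthesis had log2 fold changes of -0.98 and -0.67, and the thymidylate synthase gene TYMS (454 ± 7.17 to 299 ± 2.50 CPM) had -0.60. The genes that rose were lower in count. ALDH1L1, the cytosolic relative of ALDH1L2, went from 115 and 112 counts in DMSO to 681 and 746 counts in dBET1, a 6.28-fold rise in CPM (adjusted p = 1.62e-05). DHFR2, a dihydrofolate reductase gene, went from 60 and 30 counts to 279 and 241 counts (5.86-fold, adjusted p = 0.000256). FTCD, which passes a formimino group from histidine breakdown to folate, had 7 and 12 counts in DMSO and 29 and 23 counts in dBET1, and its call (adjusted p = 0.0412) was lost without DMSO replicate 1 or either dBET1 replicate and became 0.0564 with the replicate number as a block.

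Of 6 folate transport genes, 4 were tested, 2 were lower, 1 was higher and 1 was not called, too few to set against the 27.6% and 28% of all genes. SLC19A1, the reduced folate carrier that also brings methotrexate into cells, had 157 and 171.5 CPM in DMSO and 37.8 and 40.5 CPM in dBET1. It fell further than any of the 10 enzymes by its point estimate, to 23.8% of DMSO (log2 fold change -2.07, SE 0.089, adjusted p = 7.28e-06). SLC25A32, the mitochondrial folate carrier, fell to 37.4% (log2 fold change -1.42, adjusted p = 2.17e-05). FOLR1, a folate receptor gene, had 11 and 5 counts in DMSO and 29 and 21 counts in dBET1, and its call (adjusted p = 0.0268) was lost without any of 3 libraries, DMSO replicate 2 or either dBET1 replicate.

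Of 7 genes of glycine cleavage and use, 5 were tested, 3 were lower and 2 were higher, where 27.6% and 28% of all genes were. GCSH, the lipoate-carrying protein of the glycine cleavage system, fell from 65.8 ± 6.63 to 16.7 ± 0.271 CPM (SD, n = 2; log2 fold change -1.97, adjusted p = 1.33e-05). GCAT, which splits a threonine product into glycine and acetyl-CoA, and DLD, the dehydrogenase shared with pyruvate dehydrogenase, fell to 44.9% and 63.2% of DMSO. AMT, the folate-binding protein of glycine cleavage, rose 3.15-fold from 24 and 41 counts to 99 and 109 counts (adjusted p = 0.00579). DMGDH had 3 and 3 counts in DMSO and 15 and 13 in dBET1, too few for a fold, and its call was lost without any 1 of the 4 libraries. GLDC, the decarboxylase that this system needs, was too low to be tested.

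In the methionine cycle, 8 of 12 genes were tested, 4 were lower, 3 were higher and 1 was not called, beside 27.6% lower and 28% higher among all genes and 50.9% lower among those with at least 30 CPM. METTL16, which methylates MAT2A RNA and sets its splicing and stability, fell to 50.3% of DMSO (log2 fold change -0.99, adjusted p = 7.50e-05). MAT2B, the regulatory partner of MAT2A, fell to 68.6% (log2 fold change -0.54, adjusted p = 0.00224), and the methionine synthase reductase gene MTRR fell to 58.4% (adjusted p = 0.000653). GNMT, a glycine methyltransferase that consumes S-adenosylmethionine, rose from 15 and 7 counts to 62 and 77 counts (6.33-fold, adjusted p = 0.00106). AHCYL1 and AHCYL2, relatives of the S-adenosylhomocysteine hydrolase gene, rose 1.39-fold and 1.53-fold, and the AHCYL2 call (adjusted p = 0.00447) became 0.0502 without dBET1 replicate 2. MTAP, which salvages methionine from a by-product of polyamine synthesis, had 0 counts in the 4 libraries, as had BHMT and BHMT2.

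In serine transport and use, 11 of 13 genes were tested, 4 were lower, 2 were higher and 5 were not called, counts near the background of 27.6% lower and 28% higher. CBS, which condenses serine with homocysteine on the way to cysteine, had 139 and 165 CPM in DMSO and 44.7 and 54.5 CPM in dBET1, and fell to 32.7% (log2 fold change -1.61, SE 0.12, adjusted p = 4.13e-05). SFXN1, the mitochondrial serine carrier, fell from 192 ± 0.728 to 109 ± 0.728 CPM (SD, n = 2; log2 fold change -0.81, adjusted p = 7.37e-05), and its relative SFXN2 fell to 46.0% (adjusted p = 0.000312). SRR, the serine racemase gene, rose 2.62-fold from 130 and 104 counts to 297 and 314 counts (adjusted p = 0.000559). SDSL, a serine dehydratase-like gene, rose 1.71-fold (adjusted p = 0.0101), a call that became 0.0559 without dBET1 replicate 1.

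**Figure D5:**
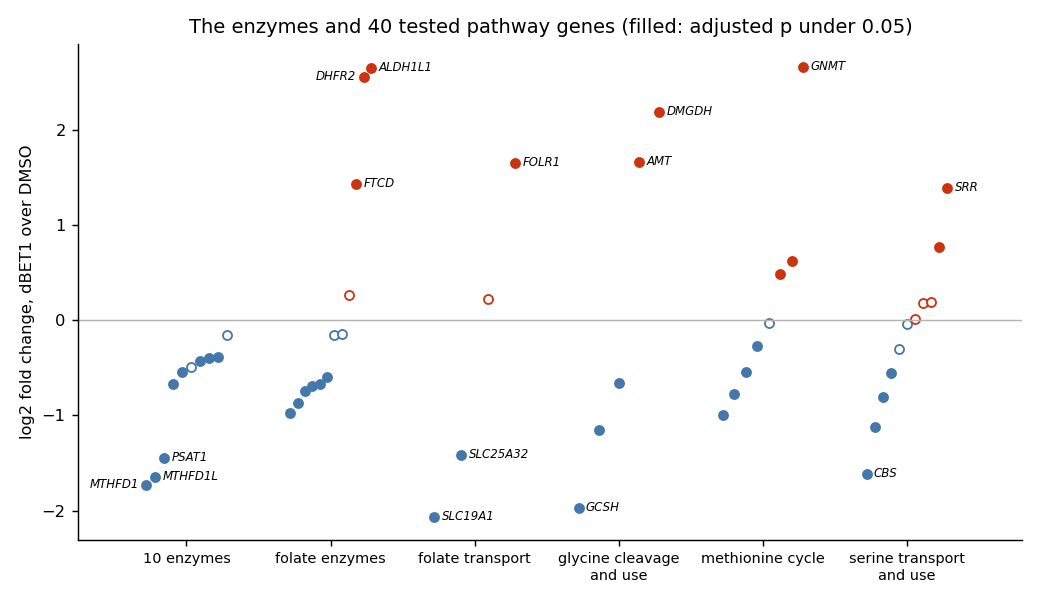
Log2 fold change, dBET1 over DMSO, of the 10 enzymes and of the 40 tested genes in 5 pathway lists, as blue points below 0, red points above 0 and filled points for an adjusted p under 0.05. None of the 10 enzymes lies above 0, while each list has filled points on both sides, and genes far from 0 carry their symbols.

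ATF4 and MYC, transcription factors known to bind promoters of serine and one-carbon genes, were also measured at the RNA level. MYC had 445 and 465 CPM in DMSO and 278 and 269 CPM in dBET1, a fall to 60.1% (log2 fold change -0.73, SE 0.070, adjusted p = 0.000101). ATF4 had 246 and 253 CPM in DMSO and 199 and 192 CPM in dBET1, a fall to 78.5% (log2 fold change -0.35, SE 0.070, adjusted p = 0.00381). The ATF4 call was lost without dBET1 replicate 2 (adjusted p = 0.0727). NFE2L2, named after its values were seen, was lower as well. The 3 regulators all had over 30 CPM, a class in which 50.9% of genes were lower, so their count says little about them. MTHFD1, MTHFD1L and PSAT1 fell further than the RNA of either factor, with 95% intervals that lie below those of MYC and ATF4. Whether either factor has a part in the changes of the enzymes was not tested.

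For PHGDH, SHMT2 and MTHFD2, the tested coding genes with the most similar profile were found by Euclidean distance between log2(CPM + 0.5) values centred on each gene's mean over the 4 libraries. The nearest were UTP3, PTCD1 and CHMP2A for PHGDH (distances 0.021, 0.023 and 0.025), AARS2, GNAS and AUNIP for SHMT2 (0.0095, 0.012 and 0.014) and PLPPR2, DIS3 and CAB39 for MTHFD2 (0.011, 0.013 and 0.018). Such neighbours are many: 176 coding genes lay within 0.1 of PHGDH, 259 of SHMT2 and 318 of MTHFD2. With 4 libraries in 2 groups, such a profile holds mainly the size of the fall and the spread between replicates.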

How the data were processed

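Total RNA of 4 libraries was sequenced. Per the labels and the study's methods, the authors used HISAT2 2.2.0 for alignment to hg38 and StringTie for abundances. The deposited values are whole-number counts, not normalized. The step from abundances to counts and its strand setting are not given in the sources used here, so overlapping and near-identical genes may share counts. Symbols and coordinates came from GENCODE on hg38, which matched 56105 of 64252 identifiers, and the rest held 2.57% of counts. No column was unused (0 columns).

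Counts were filtered with filterByExpr, scaled by TMM and tested with the quasi-likelihood test of edgeR 4.0.16 in R 4.3.3, with Benjamini-Hochberg adjustment over 17971 genes. The study's methods used DESeq2, which was run as an alternative (1.42.0). SE was the absolute log2 fold change over the square root of F, and intervals are at 95%. The biological coefficient of variation was 0.123. Replicates differed beyond counting error (chi-square per degree of freedom 23.6 in DMSO and 8.14 in dBET1). The fits were also run on simulated counts with few changed genes, in equal numbers up and down. That setting does not test the scaling of the present libraries, where many genes changed.

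The members, pathway lists and markers were chosen with earlier results of these data known. Named were the 10 members, up to 3 genes by p per direction and list, untested list genes, copies, overlapping genes, nearest profiles, ATF4 and MYC. MTHFD2L entered through the paralog ratios, and NFE2L2 was named after its values were seen. Some genes of the lists are not reported here and enter no count of a list. Alternatives were DESeq2, its size factors in edgeR, library totals only, no count filter, at least 10 counts per library, a replicate block, counts divided by 2 and each library left out.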

Additional observations from a re-analysis of the deposited data

How the results depend on the processing

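Of 110 refitted fold changes of the 10 enzymes, 104 kept their direction and their side of an adjusted p of 0.05, 4 lost the call, 1 gained it and 1 reversed. MTHFD1 ran from -1.86 to -1.52, MTHFD1L from -1.72 to -1.43 and PSAT1 from -1.57 to -1.24, past the fold limit in each setting. Scaling by library totals only raised the median of all genes from 0.05 to 0.26. The median of the enzymes then moved to -0.31, PSPH reversed to 0.05, and SHMT1 (-0.18, adjusted p = 0.173), MTHFD2 (-0.19, adjusted p = 0.0713) and ATF4 (-0.14, adjusted p = 0.124) lost their calls, so that 6 enzymes were lower in place of 8. That scale called 6703 genes higher and 3573 lower, against 5038 and 4953 with TMM. With no count filter 3459 genes were higher. With each library left out in turn, 7 to 9 enzymes were lower and the log2 ratio of MTHFD1L to MTHFD1, dBET1 minus DMSO, ran from -0.086 to 0.269, negative without dBET1 replicate 2. Of the pathway genes, 7 were higher with at least 10 counts in every library, and 7 to 10 with each library left out, in place of 11. DESeq2 did not call DMGDH (adjusted p = 0.162), FOLR1 (adjusted p = 0.143) or FTCD (adjusted p = 0.197). FOLR1 (adjusted p = 0.0736) and FTCD (adjusted p = 0.0996) were also not called without a count filter.

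With the replicate number as a replicate block, 8 enzymes were lower and 3 were past the fold limit, as without it, and FTCD was the pathway gene that lost its call (adjusted p = 0.0564). No pairing of the libraries by number was seen: across 17971 genes, the difference between replicates 1 and 2 in DMSO had a correlation of -0.001 with that in dBET1. This covers all genes tested, those with low counts included, so a weak pairing could be missed. SDs rest on 2 values, and groups of 2 are too small for a test of outlying libraries.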
